A study of Mus musculus with 10 samples.

Results

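The cyclins and cyclin-dependent kinases (CDKs) were examined in the livers of mice with and without Rev-erb alpha, the nuclear receptor encoded by Nr1d1 that represses transcription as part of the circadian clock. Members were taken by symbol, as probe sets that the array annotation gives 1 gene symbol starting with Ccn and a letter from a to l, Cdk or Cdkl, followed by a number. Ccnd1 was left out, and the probe set of highest mean stood for each gene. This gave 44 genes of 19933 measured, from 48 probe sets. The name pattern uses no measured difference, and it also takes in 8 genes that are only named for binding a CDK or cyclin. Ccnb1 had no probe set with a symbol in the annotation and was not analysed here.

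A cyclin is the regulatory subunit that switches on a CDK. D-type cyclins with Cdk4 and Cdk6 start the passage through G1, E-type cyclins with Cdk2 drive entry into S phase, A-type cyclins act in S phase and B-type cyclins with Cdk1 in mitosis. Other members of these families serve transcription and splicing instead of division. Hepatocytes of an adult liver rarely divide, but they re-enter the cycle after tissue loss, and the circadian clock is known to gate that re-entry.

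Livers of 5 wild-type (WT) mice and of 5 mice labelled Nr1d1-/- (KO) were compared, all male, on a C57Bl/6 background and 10 to 12 weeks old. They ate normal chow, were kept under 12 h light and 12 h dark, and their livers were taken at ZT10, 10 h after the lights came on. WT animals came from a commercial supplier and KO animals from a line crossed back to C57Bl/6 at least 7 times, so genotype and origin cannot be told apart. RNA of each mouse was hybridized to its own Affymetrix Mouse Gene 1.0 ST array, and values are log2 of the authors' normalized intensities. The labels name no batch.

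The hepatocyte marker list read alike in both genotypes, with a list mean of 13.62 to 13.69 in WT and 13.59 to 13.69 in KO livers. These markers read far above the upper quartiles of the arrays (8.90 to 8.99), and whether their signal was saturated was not tested. Nr1d1 itself has a single probe set, at a mean of 9.78 in WT against 9.92 in KO livers, so it gave no check of the genotype. The labels do not say whether that probe set lies in the deleted stretch. Arntl, a clock gene that Rev-erb alpha represses, rose by 2.13 (log2). Median intensities of the arrays lay between 156 and 165. The arrays of widest interquartile range were KO replicate 5 (2.99), WT replicate 1 (2.98) and KO replicate 4 (2.96), and calls that were lost without these 3 are given so.

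Of the 44 genes, 2 passed the test (limma, adjusted p under 0.05 over all genes tested). Ccng2, an unconventional cyclin linked to cell cycle arrest, rose 2.31-fold, and Ccne1, the cyclin E1 that activates Cdk2 at the entry to S phase, fell to 0.601 of its WT level. The other 42 did not pass, and each of them differed by less than 1.5-fold. The 2 called genes are 4.55% of the members, against 5.61% of all genes tested. By direction, 2.27% of the members were higher and 2.27% lower, against 3.17% and 2.44% of all genes. The share called was near the background of these arrays. It does not count Ccnd1, which fits the name pattern but was left out, and which fell by 1.24 (limma adjusted p = 2.4e-04). Without the 3 arrays of widest interquartile range 1 member was called, and without WT replicate 4 there were 4, with Cdk16 and Cdk2ap2 lower. A further lower member was called without WT replicate 3 (Cdk5rap3), WT replicate 5 (Ccne2) or KO replicate 1 (Cdk18). At an unadjusted p under 0.05 the members numbered 16 of 44, or 36.4%, against 17.4% of all genes. Among these members Ccng2, Ccng1 and Cdk20 were higher in KO livers and the others lower. The 44 members read brighter than all genes, with a median level of 8.35 against 7.51. Under the lower quartile on all arrays were 4 of 44 members, against 3745 of 19933 genes. Whether this bears on the share at an unadjusted p under 0.05 was not tested.

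**Figure D1:**
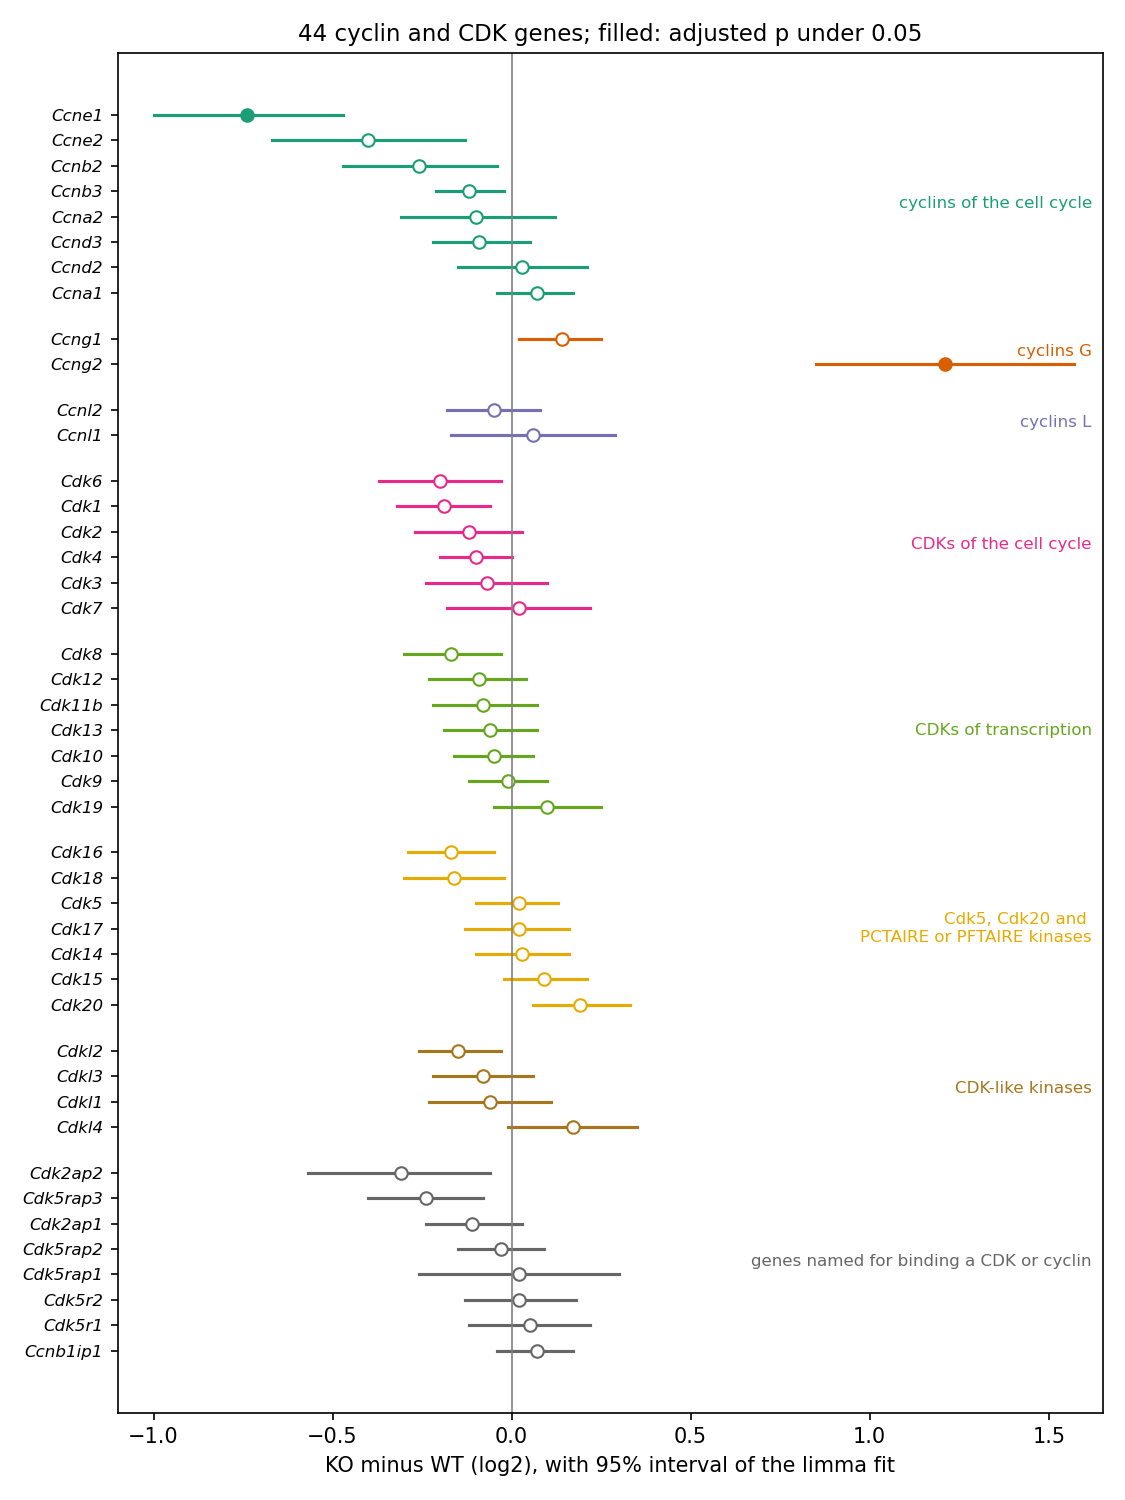
Difference between KO and WT livers (x axis, log2) for 44 cyclin and CDK genes, grouped by role, with the 95% interval of the limma fit as a line. Filled points mark Ccng2 at 1.21 and Ccne1 at -0.74, the genes with an adjusted p under 0.05, and the other points lie between -0.40 and 0.19.

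The knocked-out gene encodes a DNA-binding repressor, so the start-site regions of the called genes are shown, with that of Cdk4 beside them because it held the most E-boxes of any member. RefSeq start-site windows (build GRCm38.p6, 250 bases before to 50 after the start) were found for 35 of the 44 members. Letters searched on both strands were AGGTCA, the core of the elements that Rev-erb and ROR receptors bind, the E-box CACGTG, the D-box TTANGTAA, the forkhead core GTAAACA, the E2F forms TTTCCCGC, TTTCGCGC, TTTGCCGC and TTTGGCGC, the cyclic AMP element TGACGTCA and the GC box GGGCGG. Capitals mark every match. Ccng2 lies on the plus strand at chr5:93267323-93267622, Ccne1 on the minus strand at chr7:38107441-38107740 and Cdk4 on the plus strand at chr10:127063285-127063584.
Ccng2: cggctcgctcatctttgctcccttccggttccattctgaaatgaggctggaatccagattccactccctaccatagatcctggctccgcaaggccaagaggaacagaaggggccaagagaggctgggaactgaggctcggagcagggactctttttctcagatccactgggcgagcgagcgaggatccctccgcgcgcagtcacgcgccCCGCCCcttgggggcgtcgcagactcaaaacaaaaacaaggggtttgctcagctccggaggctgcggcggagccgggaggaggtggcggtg
Ccne1: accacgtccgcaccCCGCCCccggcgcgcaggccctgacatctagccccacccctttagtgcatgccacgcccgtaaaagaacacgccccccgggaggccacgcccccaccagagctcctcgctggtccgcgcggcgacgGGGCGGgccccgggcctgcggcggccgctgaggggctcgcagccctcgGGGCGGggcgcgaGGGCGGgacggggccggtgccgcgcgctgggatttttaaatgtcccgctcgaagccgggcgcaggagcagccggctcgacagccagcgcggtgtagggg
Cdk4: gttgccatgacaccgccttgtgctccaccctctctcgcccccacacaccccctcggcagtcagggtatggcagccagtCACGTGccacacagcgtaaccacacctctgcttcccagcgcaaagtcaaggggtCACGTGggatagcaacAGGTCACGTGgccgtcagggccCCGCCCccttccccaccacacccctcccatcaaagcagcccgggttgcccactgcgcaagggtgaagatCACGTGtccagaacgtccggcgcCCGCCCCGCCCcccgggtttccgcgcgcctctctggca

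Neither called gene held AGGTCA, an E-box, a D-box, a forkhead core, an E2F form or the cyclic AMP element in its window. The window of Ccng2 held 1 GC box and that of Ccne1 held 4. AGGTCA was found in 4 of the 35 members (Ccnb1ip1, Ccnd3, Cdk15 and Cdk4) and in 18.1% of all genes with such a window. E-boxes were found in 6 (Cdk18, Cdk20, Cdk4, Cdk6, Cdk7 and Cdk8) and in 8.09% of all genes. In Cdk4 they began 172, 118, 98 and 11 bases before the start, and the one at 98 shares letters with the AGGTCA that begins at 102. GC boxes were found in 29 of the 35 and in 38.2% of all genes. Other matches were a D-box in Cdk5rap1, forkhead cores in Ccnd3 and Cdkl4, E2F forms in Cdk1 and Cdk2 and a cyclic AMP element in Ccnl1. The D-box was held by 2.72% of all genes, the forkhead core by 4.05%, an E2F form by 2.60% and the cyclic AMP element by 2.03%. A match describes letters only and was not tested for binding.

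Ccng2 showed the largest difference of all 44 genes. In WT livers it read 7.04, 7.28, 7.41, 7.87 and 7.32, and in KO livers 8.32, 8.35, 8.79, 8.42 and 9.09 (log2 intensity). The genotypes did not overlap, with WT replicate 4 the highest of its group and KO replicate 5 of the other. The means were 7.38 ± 0.303 and 8.59 ± 0.333 (SD, n = 5 each), so KO livers were higher by 1.21 with SE 0.166 and limma adjusted p = 9.7e-04. The call held in all 19 alternatives, at differences of 1.02 to 1.33. Cyclin G2 does not drive the cycle forward, and its gene is a known target of FOXO transcription factors.

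Its paralog Ccng1, a target of p53, did not pass. Ccng1 read 11.65, 11.66, 11.62, 11.54 and 11.69 in WT livers and 11.66, 11.75, 11.79, 11.90 and 11.74 in KO livers. KO replicate 1 lay inside the WT range, and the other 4 KO livers lay above it. The difference was 0.14 with a 95% interval of 0.02 to 0.25 and limma adjusted p = 0.186. That the 2 cyclin G genes differ in response was not tested.

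After each genotype's mean was taken out, the genes most like Ccng2 over the 10 arrays were 4930523C07Rik (r = 0.962), Ncoa2 (0.944), Erbb3 (0.942), Slc8b1 (0.937) and Sgcd (0.936). They are the highest r values of a search over all genes tested, and whether chance alone gives values of this size was not tested. These values were read off the same arrays as Ccng2 and describe how single livers vary. None of these 5 genes passed the limma test between genotypes, with adjusted p-values of 0.213 to 0.957.

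Among the cell cycle cyclins that the rule takes, the E-type genes had the most negative differences. Ccne1 read 8.49, 8.55, 8.43, 7.85 and 8.02 in WT livers and 7.64, 7.54, 7.45, 7.43 and 7.61 in KO livers. All KO livers lay below all WT livers, and WT replicates 4 and 5 lay nearest to them. The means were 8.27 ± 0.313 and 7.53 ± 0.0911 (SD, n = 5 each), and the gene fell by 0.74 with SE 0.123 and limma adjusted p = 0.00365. Without the 3 arrays of widest interquartile range the difference was -0.67 and the call was lost (adjusted p = 0.0635), while it held in the other 18 alternatives.

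Ccne2, which encodes the second E-type cyclin, read 7.12, 6.58, 6.82, 6.46 and 6.30 in WT livers. In KO livers it read 6.22, 6.27, 6.31, 6.17 and 6.33. The groups overlapped at WT replicate 5, and WT replicate 1 stood highest. The difference was -0.40 with SE 0.124 and limma adjusted p = 0.0917, and it passed only when WT replicate 5 was left out (adjusted p = 0.0321). WT livers spread more widely than KO livers in both genes, with SDs of 0.313 against 0.0911 for Ccne1 and 0.323 against 0.0630 for Ccne2. Over all members WT livers had the larger SD in 22 of 44 genes, and over all genes tested in 48.7%.

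**Figure D2:**
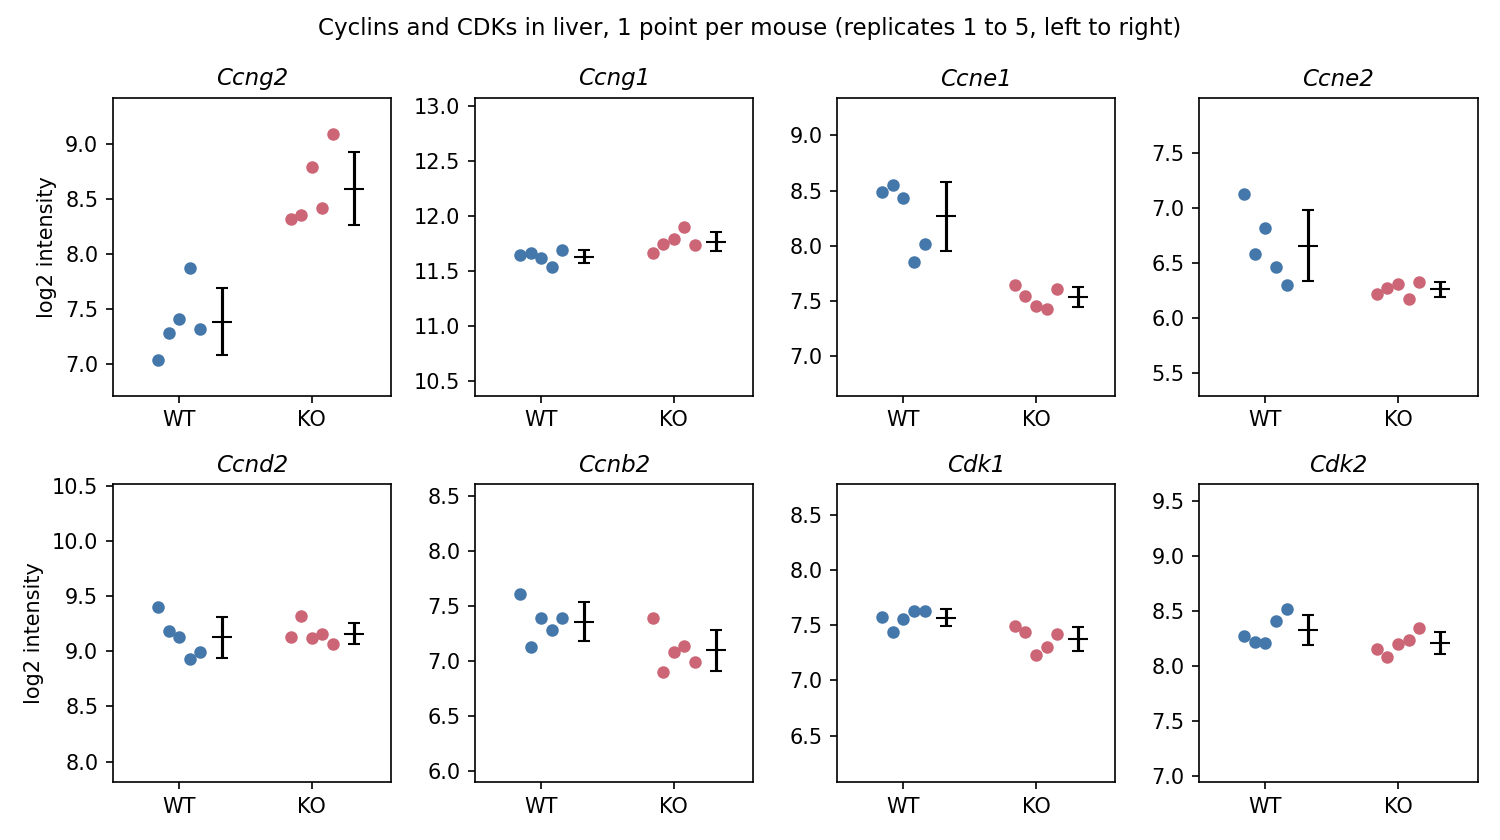
Log2 intensity (y axis, all panels spanning the same width) in single WT and KO livers for 8 genes, with the mean and SD of 5 mice beside the points. The groups are apart for Ccng2 and Ccne1 and overlap for Ccng1, Ccne2, Ccnd2, Ccnb2, Cdk1 and Cdk2.

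The remaining cyclins of the cell cycle did not pass. Ccnd2 and Ccnd3 encode D-type cyclins that bind Cdk4 and Cdk6. Ccnd2 read 9.40, 9.18, 9.13, 8.93 and 8.99 in WT livers and 9.13, 9.32, 9.12, 9.16 and 9.07 in KO livers. Its difference was 0.03 with a 95% interval of -0.15 to 0.21, which spans changes of either sign. Ccnd3 read 9.07, 9.18, 9.06, 8.90 and 8.87 in WT and 8.92, 8.86, 8.99, 8.92 and 8.96 in KO livers, a difference of -0.09 (-0.22 to 0.05). The D-type cyclin that the rule leaves out, Ccnd1, fell by 1.24 (SE 0.140, limma adjusted p = 2.4e-04), with KO livers at 9.24 to 9.60 and WT livers at 10.28 to 11.11.

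Cyclins of S phase and mitosis showed small differences. Ccna2, the cyclin A of dividing somatic cells, read 6.74, 6.22, 6.36, 6.21 and 6.52 in WT and 6.37, 6.46, 6.21, 6.33 and 6.19 in KO livers. The groups overlapped through most of their range, and the difference was -0.10 (95% interval -0.31 to 0.12). Ccnb2, a mitotic partner of Cdk1, read 7.61, 7.13, 7.39, 7.28 and 7.39 in WT and 7.39, 6.90, 7.08, 7.14 and 6.99 in KO livers. It differed by -0.26 with SE 0.0998 and limma adjusted p = 0.190. KO replicate 1 read at the level of the WT livers, and WT replicate 2 at that of the KO livers.

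The germline cyclins complete this set. Ccna1, a cyclin A of the male germline, differed by 0.07 and overlapped between genotypes. Ccnb3, a cyclin of meiosis, read 4.78 to 4.90 in WT and 4.64 to 4.77 in KO livers, a difference of -0.12 with adjusted p = 0.173 by limma. Its KO arrays lay below its WT arrays, yet on every array the gene read under the lower quartile, so it was not shown to be above background. Counted over all members, the arrays of the genotypes did not overlap in 4 of 44 genes (Ccng2, Ccne1, Ccnb3 and Cdk20). That is 9.09%, against 7.00% of all genes tested.

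The L-type cyclins, which take part in splicing together with Cdk11, did not pass. Ccnl1 read 8.91, 8.99, 9.15, 8.95 and 9.22 in WT and 8.90, 8.87, 9.09, 9.22 and 9.45 in KO livers, a difference of 0.06 (95% interval -0.17 to 0.29). KO replicate 5 stood highest, and without it the difference was near 0 and negative. Ccnl2 differed by -0.05 (-0.18 to 0.08).

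None of the 20 kinases Cdk1 to Cdk20 passed in limma at an adjusted p under 0.05. At an unadjusted limma p under 0.05 there were 7 of 20, Cdk4 only just (0.0499), against 17.4% of all genes tested. Differences of the 20 kinases ran from -0.20 for Cdk6 to 0.19 for Cdk20, with a median of -0.06. The median over all 44 members was -0.06, against 0.01 over all genes tested. Of the members 27 were lower and 17 higher in KO livers, while 9141 of all 19933 genes tested were lower. Under the scalings tried 26 to 27 members were lower. With array weights or without WT replicate 3 the number was 31, and without the 3 arrays of widest interquartile range 30. As the livers were measured in bulk, fewer cells of a type and less RNA per cell cannot be told apart.

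Among the kinases of the cell cycle, 5 of 6 had a negative difference. Cdk1, the mitotic kinase, read 7.58, 7.44, 7.56, 7.63 and 7.63 in WT and 7.49, 7.44, 7.23, 7.30 and 7.42 in KO livers. It differed by -0.19 (SE 0.0600) with limma adjusted p = 0.0935, and WT replicate 2 lay inside the KO range. Cdk2, the partner of cyclins E and A, read 8.27, 8.22, 8.21, 8.41 and 8.52 in WT and 8.16, 8.08, 8.20, 8.24 and 8.35 in KO livers. Its difference of -0.12 had a 95% interval of -0.27 to 0.03. The KO value of replicate 5 lay above the WT values of replicates 1 to 3.

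Cdk4 and Cdk6 are the partners of the D-type cyclins. Cdk4 read 11.26, 11.24, 11.16, 11.14 and 11.16 in WT and 11.01, 11.15, 11.12, 11.13 and 11.04 in KO livers, a difference of -0.10 (SE 0.0470, limma adjusted p = 0.288). Only KO replicate 2 reached into the WT range. Cdk6 read 10.57, 10.57, 10.53, 10.69 and 10.61 in WT and 10.41, 10.35, 10.64, 10.45 and 10.13 in KO livers. It differed by -0.20 (SE 0.0788, limma adjusted p = 0.197), with KO replicate 3 inside the WT range and KO replicate 5 the lowest.

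Cdk7 activates other CDKs and also phosphorylates RNA polymerase II. It read 8.61, 8.57, 8.21, 8.29 and 8.42 in WT and 8.29, 8.44, 8.34, 8.69 and 8.44 in KO livers, a difference of 0.02 (95% interval -0.18 to 0.22). A second Cdk7 probe set differed by 0.11. Cdk3, whose gene is disrupted in common laboratory strains, differed by -0.07.

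The kinases of transcription differed by at most 0.17 in size. Cdk8 and its paralog Cdk19 belong to the Mediator kinase module. Cdk8 read 11.09, 11.04, 11.08, 11.23 and 11.32 in WT and 10.96, 10.93, 10.92, 11.02 and 11.10 in KO livers. It differed by -0.17 (SE 0.0624, limma adjusted p = 0.172), and only KO replicate 5 reached into the WT range. Cdk19 differed by 0.10 (95% interval -0.05 to 0.25). Cdk9, the kinase that releases paused RNA polymerase II, read 9.64, 9.69, 9.69, 9.74 and 9.82 in WT and 9.71, 9.65, 9.61, 9.81 and 9.77 in KO livers, a difference of -0.01 (-0.12 to 0.10). Cdk12 and Cdk13, which act during elongation, differed by -0.09 and -0.06, and Cdk10 and Cdk11b by -0.05 and -0.08. The unused probe sets of Cdk10 and Cdk12 both gave -0.12.

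Cdk5 is the kinase best known from neurons, where p35 and p39 activate it in place of a cyclin. It read 9.93, 9.93, 9.79, 9.90 and 10.03 in WT and 9.94, 9.84, 9.98, 9.99 and 9.92 in KO livers, a difference of 0.02 (95% interval -0.10 to 0.13). The genes of its activators, Cdk5r1 (0.05) and Cdk5r2 (0.02), did not pass either. Cdk20 read 8.04, 8.04, 7.93, 7.99 and 8.06 in WT and 8.17, 8.08, 8.14, 8.22 and 8.42 in KO livers. No WT liver reached the lowest KO liver, but the difference of 0.19 (SE 0.0620) had a limma adjusted p of 0.0991. Cdk20, also called cell cycle-related kinase, did not pass in any of the 19 alternatives (adjusted p 0.0693 to 0.283).

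The PCTAIRE kinases Cdk16, Cdk17 and Cdk18 and the PFTAIRE kinases Cdk14 and Cdk15 are named for a motif in their cyclin-binding helix. Cdk16 differed by -0.17 (limma adjusted p = 0.111) and Cdk18 by -0.16 (adjusted p = 0.204). Each passed once, Cdk16 without WT replicate 4 (adjusted p = 0.0463) and Cdk18 without KO replicate 1 (adjusted p = 0.0445). Cdk17 differed by 0.02, Cdk14 by 0.03 and Cdk15 by 0.09, and Cdk15 read under the lower quartile on all arrays. Of the CDK-like kinases, Cdkl2 differed by -0.15 (limma adjusted p = 0.148), Cdkl1 by -0.06, Cdkl3 by -0.08 and Cdkl4 by 0.17. Cdkl3 and Cdkl4 also read under the lower quartile on all arrays.

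**Figure D3:**
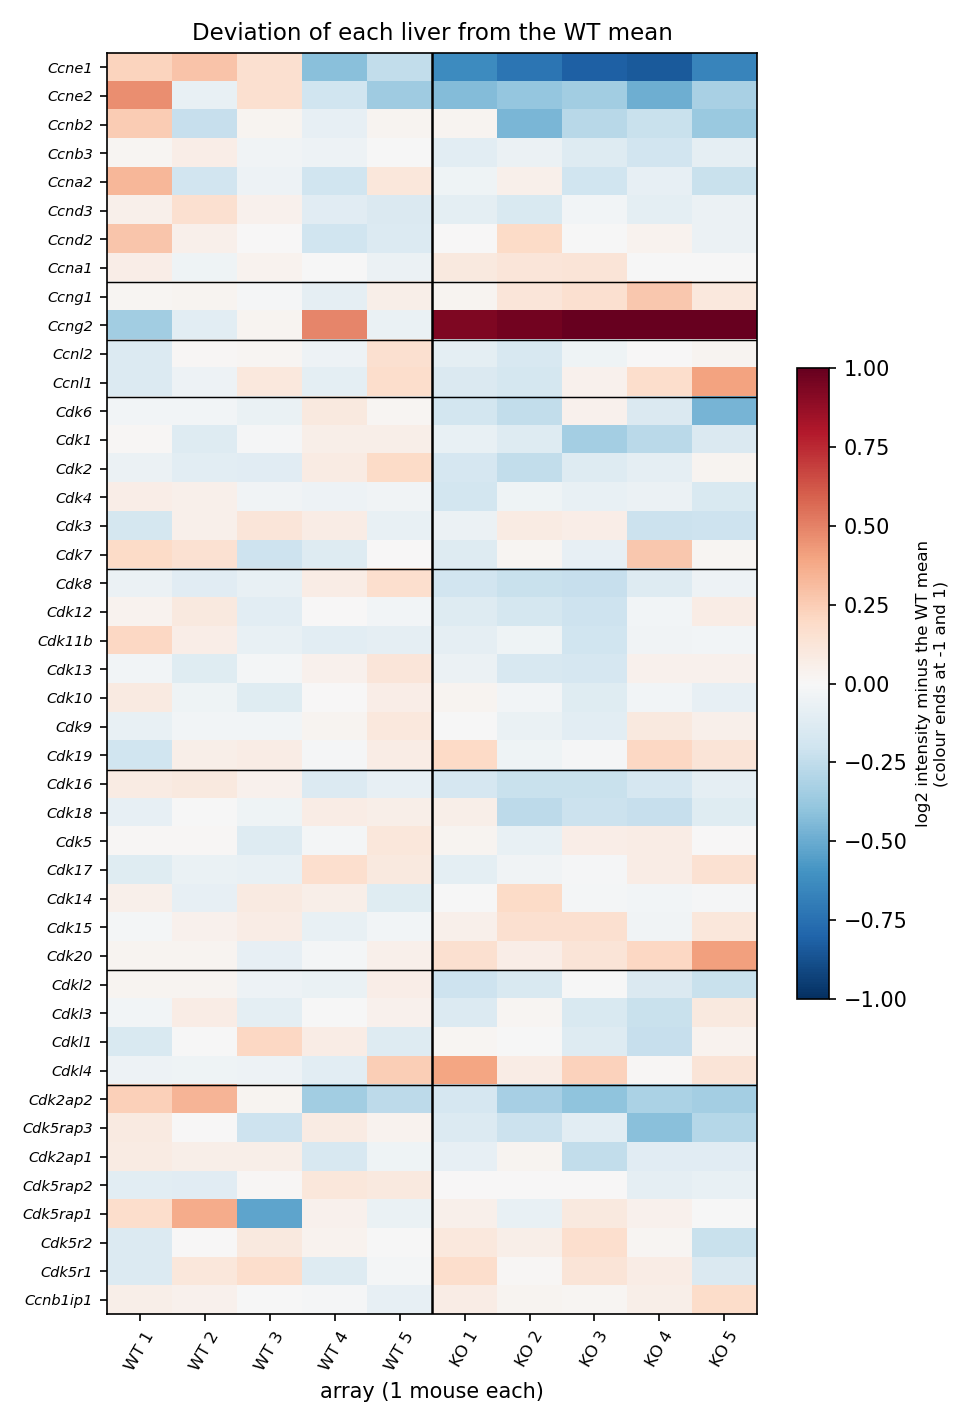
Log2 intensity of each array minus the WT mean of the gene (colour), for 44 genes in rows grouped by role and 10 arrays in columns. Ccng2 is raised in all 5 KO livers and Ccne1 lowered in all 5. Among the WT livers Cdk5rap1 varies most (SD 0.338), followed by Ccne2, Ccne1, Ccng2 and Cdk2ap2 (0.323 to 0.301).

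Among the 8 genes named for binding a CDK or cyclin, Cdk5rap3 came nearest to passing. Its protein, also known as a part of the UFM1 ligase complex, was first described as a Cdk5 activator binder. It read 9.40, 9.31, 9.10, 9.39 and 9.34 in WT and 9.17, 9.09, 9.20, 8.89 and 9.02 in KO livers. WT replicate 3 lay inside the KO range. The difference was -0.24 (SE 0.0734) with limma adjusted p = 0.0887, and 0.0324 without WT replicate 3.

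Cdk2ap2, whose protein is related to the Cdk2-binding Cdk2ap1, differed by -0.31 (SE 0.119, limma adjusted p = 0.175), with WT livers at 9.44 to 10.13 and KO livers at 9.39 to 9.62. It passed without WT replicate 4 (adjusted p = 0.0466). Cdk2ap1 gave -0.11, and -0.14 in its other probe set. Cdk5rap1, a tRNA-modifying enzyme, differed by 0.02, the centrosomal Cdk5rap2 by -0.03 and the ubiquitin ligase gene Ccnb1ip1 by 0.07.

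Single livers carried Ccne1 together with several other genes, pairs chosen after their values were seen. After each genotype's mean was taken out, Ccne1 followed Cdk2ap2 with r = 0.942, Cdk16 with 0.919, Ccnd1 with 0.771 and Ccne2 with 0.667 over the 10 arrays. Against Ccnb2 the value was 0.120 and against Ccng2 -0.480. Ccne1 spread more widely in WT than in KO livers (SD 0.313 against 0.0911), as did the genes it followed. The values of r therefore rest mainly on the WT livers. WT replicates 4 and 5 read lowest of their group in Ccne1, Cdk2ap2, Cdk16, Ccnd1 and Ccne2. These genes share the same 10 arrays, and what sets those livers apart was not tested.

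Genes that control the CDKs were read from lists beside the members. CDK inhibitors bind and block the kinases. None of 7 measured genes with an inhibitor name (Cdkn) passed in limma, with differences from -0.05 to 0.09 and 0 at an unadjusted p under 0.05. That all 7, Cdkn3 among them, act by binding and blocking was not tested. The gene of the inhibitor p21, Cdkn1a, shares its probe set with 4930567H12Rik and so was not tested by itself. That probe set read 7.47, 7.54, 7.32, 7.08 and 7.15 in WT and 10.78, 10.47, 11.38, 10.98 and 11.70 in KO livers, 13.5-fold higher, and which of the 2 genes it follows was not tested.

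Of 15 genes of CDK phosphorylation and of cyclin or inhibitor breakdown, 2 fell and 13 did not pass. They were Wee1, whose kinase holds Cdk1 and Cdk2 inactive, and Cks1b, a small subunit of CDK complexes. Wee1 read 10.11 to 10.53 in WT and 9.43 to 9.66 in KO livers and fell by 0.75 (limma adjusted p = 3.2e-04). Cks1b read 8.80 to 9.76 in WT and 8.07 to 8.75 in KO livers and fell by 0.74 (SE 0.163, limma adjusted p = 0.0185). Without the 3 arrays of widest interquartile range its difference was -0.58 and the call was lost (adjusted p = 0.113). Among those that did not pass, Fbxo31 was higher in KO livers by 0.57 (limma adjusted p = 0.116). Cdc25a, the phosphatase gene that opposes Wee1, differed by -0.29 (limma adjusted p = 0.168).

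Of 19 genes of the Rb and E2F network, which cyclin D and E kinases act on, Tfdp1 fell by 0.24 and 18 did not pass. Tfdp1, the E2F dimer partner, lost the call in 12 of 19 alternatives (limma adjusted p up to 0.209). Among them were the removal of WT replicate 1, 2 or 3 or of any single KO replicate, at differences of -0.26 to -0.19. Tfdp1 differed by -0.16 when the 3 arrays of widest interquartile range were left out (limma adjusted p = 0.209). Of 13 cyclins that the name rule did not take, Ccni rose by 0.20, Ccnd1 fell as given above, and 11 did not pass. Ccni read 11.54 to 11.62 in WT and 11.73 to 11.87 in KO livers. Without the 3 arrays of widest interquartile range its adjusted p was 0.0727 in limma, at a difference of 0.20.

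Of 27 genes of S phase and mitosis, Mcm7 rose by 0.27 and Mcm6 fell by 0.33, both parts of the replicative helicase, and 25 did not pass. The proliferation marker Mki67 differed by -0.04. Mcm7 lost the call in 7 and Mcm6 in 9 of 19 alternatives (adjusted p up to 0.174 and 0.103 in limma). For Mcm7 these included leaving out WT replicate 3 or 5 or KO replicate 1, 4 or 5, at differences of 0.23 to 0.27. For Mcm6 they included leaving out WT replicate 3 or 4 or KO replicate 1, 2, 3 or 4, at -0.35 to -0.31. Both calls were also lost without the 3 arrays of widest interquartile range, where Mcm7 differed by 0.26 (limma adjusted p = 0.174) and Mcm6 by -0.27 (adjusted p = 0.0618). Of 15 measured genes on a list of p53 targets and Gadd45 genes, Btg2 fell by 0.59 and Gadd45a by 0.20, and 13 did not pass. The list does not hold Ccng1 or Cdkn1a, which are given above. Gadd45a lost the call in 7 alternatives and Btg2 in 2 (limma adjusted p up to 0.0620 and 0.0548). Btg2 lost it without KO replicate 2 (-0.56) or 3 (-0.53), and Gadd45a without WT replicate 1, 2 or 5 or KO replicate 2, 3 or 5, at -0.20 to -0.18. Gadd45a differed by -0.22 when the 3 arrays of widest interquartile range were left out (limma adjusted p = 0.0620). The list medians lay between -0.05 and 0.02, against 0.01 over all genes tested.

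**Figure D4:**
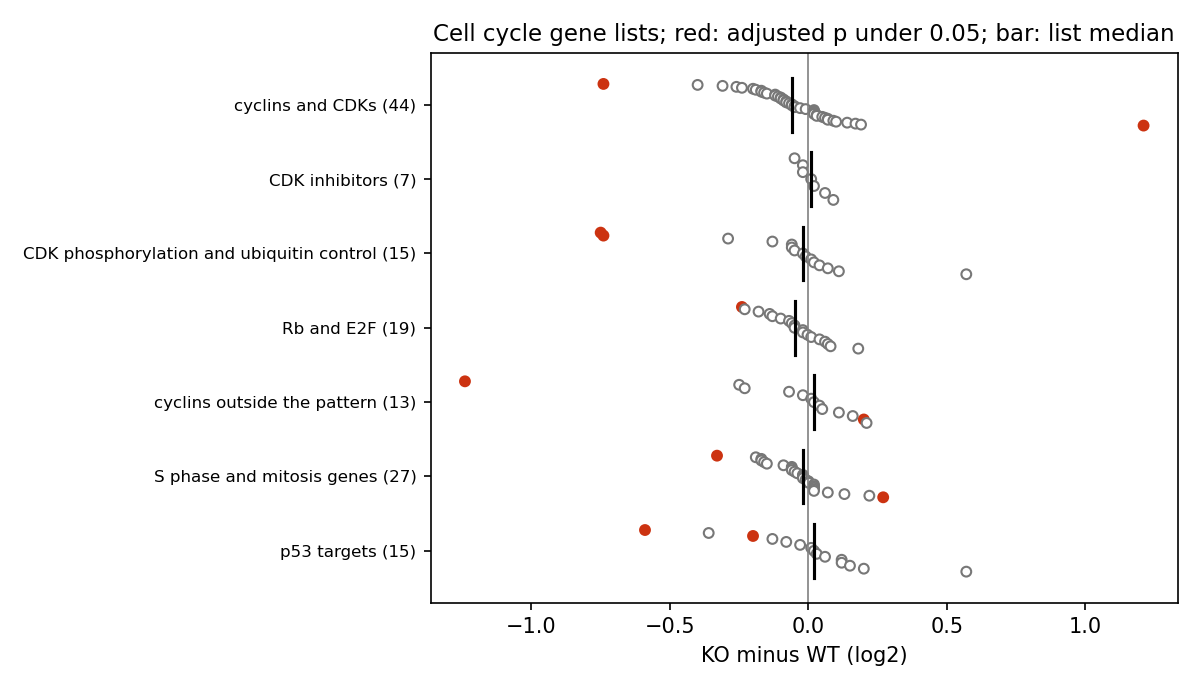
Difference between KO and WT livers (x axis, log2) for the 44 members and 6 lists of related genes, 1 point per gene, with the number of genes in brackets and a bar at each median. Red points have a limma adjusted p under 0.05, and the medians lie between -0.06 and 0.02.

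Markers of other cell types were read because cyclins are also made by cells other than hepatocytes. Of 5 cholangiocyte markers, Sox9 rose by 0.62 (limma adjusted p = 0.0129) and 4 did not pass. Sox9 no longer passed when the 3 arrays of widest interquartile range were left out, at a difference of 0.47 (limma adjusted p = 0.0666). The cholangiocyte list mean was 6.69 to 6.82 in WT and 6.80 to 7.01 in KO livers, but the median difference of the list was -0.01. Krt19, Krt7 and Epcam differed by -0.02, -0.11 and -0.01. Cftr differed by 0.11 and read under the lower quartile on all arrays. None of the 6 endothelial, 6 stellate, 6 Kupffer, 6 lymphocyte, 6 neutrophil and 3 erythroid markers measured passed in limma, with 5 of these 33 at an unadjusted p under 0.05. Their list means overlapped between the genotypes. In the endothelial list 5 of 6 markers were higher in KO livers, with a median difference of 0.12. The medians of the other lists lay between -0.01 and 0.03. The largest difference in size among these markers was -0.59 for the stellate marker Lrat (limma adjusted p = 0.164). The part of these cells in the differences of Ccng2 and Ccne1 was not tested.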

How the data were processed

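Liver RNA of 10 mice was measured on Affymetrix arrays, 1 array per mouse. The authors deposited normalized intensities on a linear scale for 27541 probe sets. Per the submitters' processing notes, RMA and Partek were used, and no version is stated. Replicates were numbered in accession order and are not pairs. The number of arrays limits the precision.

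Here log2 was taken and probe sets with 1 symbol (21631) were reduced to 19933 genes by the highest mean. KO was compared with WT across all genes by limma 3.58.1 in R 4.3.3 (lmFit, eBayes, no covariates, two-sided), with Benjamini-Hochberg adjustment over all genes. SE and 95% intervals are those of the fit, and the p-values rest on the spread among these mice. The limma step was tested on simulated data. The members, gene lists and motifs were chosen with earlier results of these data known, and the GC box and the further E2F forms were added after the windows had been read. Named with all values are called members, the 4 next by adjusted p and 18 fixed ones, of which Ccnb1 was not measured. Lists are given by counts and medians, without a set test. Alternatives covered probe set choice, a filter on dim genes, centring, quantile normalization, the variance model, array weights, an added 16 before log2, and leaving out arrays.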

Additional observations from a re-analysis of the deposited data

Results flagged for a closer look

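In Cdk14, a kinase of the PFTAIRE group, KO replicate 2 read 7.46 while the other KO livers read 7.24 to 7.27. In Cdkl4, WT replicate 5 read 5.39 against 5.04 to 5.10 in the other WT livers, though on all arrays this gene read under the lower quartile. Each array stood farther from the rest of its group than Dixon's critical ratio of 0.71 allows for 5 values. Of 88 groups checked, 2 stood out, and chance gives about 1 in 20.

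Outside the genes tested, the probe set shared by Cdkn1a and 4930567H12Rik differed between KO and WT livers by 3.75 on the log2 scale (SE 0.195, limma adjusted p = 1.0e-06 over all probe sets). All 5 KO livers lay above all 5 WT livers.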

How the results depend on the processing

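Ccng2 and Ccne1 were the 2 called members in 14 of 19 alternatives. Without the 3 arrays of widest interquartile range, 1 member was called, 1 higher and 0 lower. Leaving out single arrays gave 2 to 4 called members, 1 to 3 of them lower, with Cdk16 and Cdk2ap2 joining when WT replicate 4 was left out. The number called over all genes was 527 without the 3 arrays, against 1119. The median difference of the members lay between -0.08 and -0.05 in every alternative. The filter on dim genes took out Ccnb3, Cdk15, Cdkl3 and Cdkl4. Signs turned only in members with small differences that did not pass. Without the 3 arrays of widest interquartile range Ccna2 gave 0.02, Ccnl1 -0.12, Cdk17 -0.08, Cdk19 -0.00138 and Cdk7 -0.02. Array weights gave -0.02 for Ccnl1, -0.03 for Cdk17, -0.01 for Cdk5 and -0.00479 for Cdk5rap1, and quantile normalization gave 0.00496 for Cdk9. Leaving out single arrays gave -0.01 to 0.10 for Ccnd2, -0.02 to 0.12 for Ccnl1, -0.01 to 0.05 for Cdk14, -0.02 to 0.06 for Cdk17, -0.01 to 0.05 for Cdk5, -0.01 to 0.08 for Cdk5r2, -0.11 to 0.12 for Cdk5rap1, -0.04 to 0.07 for Cdk7 and -0.03 to 0.02 for Cdk9. The cause was not tested. With no detection calls used here, how far a gene stands over background is unknown. No paired analysis was possible because the labels give no replicate numbers.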
